A study of Mus musculus with 22 samples.

Results

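The Polycomb core subunits were compared between 4 sorted cell populations of the mouse embryo, 2 of them labelled as endothelial and 2 as precursors of blood or blood progenitors. They are 10 genes, named one by one and taken from the 24454 gene symbols of the count table by their rows: *Ezh1*, *Ezh2*, *Eed* and *Suz12* for Polycomb repressive complex 2 (PRC2), and *Ring1*, *Rnf2*, *Bmi1*, *Cbx2*, *Cbx7* and *Cbx8* for Polycomb repressive complex 1 (PRC1). All 10 had a row. The cells came from untreated C57BL/6 mouse embryos, from the aorta-gonad-mesonephros (AGM) region, where blood stem cell precursors bud off the aorta. VE-cadherin-positive cells were sorted by CD44 and Kit, 25 cells to a library, and 22 libraries were sequenced. CD44Neg cells, labelled as endothelium, gave 10 libraries, of which 4 were from embryonic day 9.5 (E9.5), 3 from E10 and 3 from E11. CD44LowKitNeg cells, labelled as hemogenic endothelium, gave 6 libraries (1, 2 and 3 from these stages). CD44LowKitPos cells, labelled as precursors of blood stem and progenitor cells, gave 1 library from E9.5 and 2 from E10. CD44High cells, labelled as blood stem and progenitor cells, gave 3 libraries, all from E11. The date in the labels changed with the stage, so stage and date cannot be told apart. The titles of all CD44LowKitPos and CD44High libraries, and of no endothelial library, carry the prefix KG, whose meaning is not given. Comparisons of these 2 populations with the endothelial ones therefore also cross this difference in label. The labels do not say whether libraries of one stage came from separate embryos, so p-values measure the spread between these libraries, which may be technical.

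Polycomb proteins keep genes silent through modified histones. PRC2 methylates lysine 27 of histone H3. Its catalytic subunit is EZH2 or the weaker EZH1, EED binds the finished mark and stimulates the enzyme, and SUZ12 holds the complex together. PRC1 attaches ubiquitin to histone H2A through the ligases RING1 and RNF2 (RING1B), BMI1 is one of the PCGF proteins that pair with them, and the CBX proteins of canonical PRC1 read the PRC2 mark. EZH2 is typical of dividing cells and EZH1 of resting ones, while BMI1 is known for its role in the self-renewal of adult blood stem cells.

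Between 3912350 and 8657546 reads were counted per library. Levels are given as normalized CPM (library counts scaled to a common total, after TMM normalization), and a gene was called changed at an adjusted p under 0.01 from edgeR's quasi-likelihood test over all genes tested. Of the 6 endothelial markers, all were called lower in CD44High than in every other population, with summed levels of 13.9 to 53.3 CPM in CD44High against 2217 to 4121 in CD44Neg, and *Cdh5*, which encodes VE-cadherin itself, had 0 counts in all 3 CD44High libraries. The CD44High libraries held all 7 macrophage markers at a summed 1292 to 3593 CPM, and 7 of 7 were called higher than in either endothelial population. The same sum was 1.21 to 16.95 in CD44Neg, 0 to 40.2 in CD44LowKitNeg and 14.7 to 21.1 in CD44LowKitPos, and *C1qa*, *C1qb*, *C1qc* and *Adgre1* had 0 counts in every library of these 3 populations. Blood markers were at 1149 to 2231 CPM in CD44High and 19.6 to 49.7 CPM in CD44Neg, and at E11 5 of 6 were called higher against both endothelial populations. Summed erythroid markers were at 48.2, 223 and 254 CPM in CD44High, with 1 of 4 tested called higher at E11. Mesenchyme markers were at 0.272, 556 and 763 CPM, mostly from *Acta2*, with 0 of 4 called at E11 and 0 and 2 at an unadjusted p under 0.05 against CD44LowKitNeg and CD44Neg. The ribosomal precursor *Rn45s* took 16.6% to 23.9% of the counts in CD44High and 1.92% to 19.3% in the other populations. In samples of this kind, fewer expressing cells and less RNA per cell cannot be told apart.

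Divided by exon length, *Rnf2* and *Eed* had the highest medians of the members in every population. The ranges of *Eed* and *Ezh2* overlapped, in CD44LowKitNeg at 7.49 to 30.0 and 4.57 to 24.5 CPM per kilobase. In CD44Neg the median level of *Rnf2* was 36.2 CPM per kilobase, and the libraries of *Eed* ran from 9.70 to 41.4. *Ezh2* (10.4), *Suz12* (7.31) and *Bmi1* (5.73) formed a middle group whose library ranges overlapped. *Cbx2* stood at 2.89, *Ezh1* at 1.93 and *Cbx8* at 1.59 CPM per kilobase, again with overlapping ranges. *Ring1* (0.0688) and *Cbx7* (0) were the lowest, and both had 0 counts in at least 5 of the 10 libraries. The ligase pair was therefore measured almost wholly as *Rnf2* and, by the medians, the methyltransferase pair mostly as *Ezh2*.

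**Figure D1:**
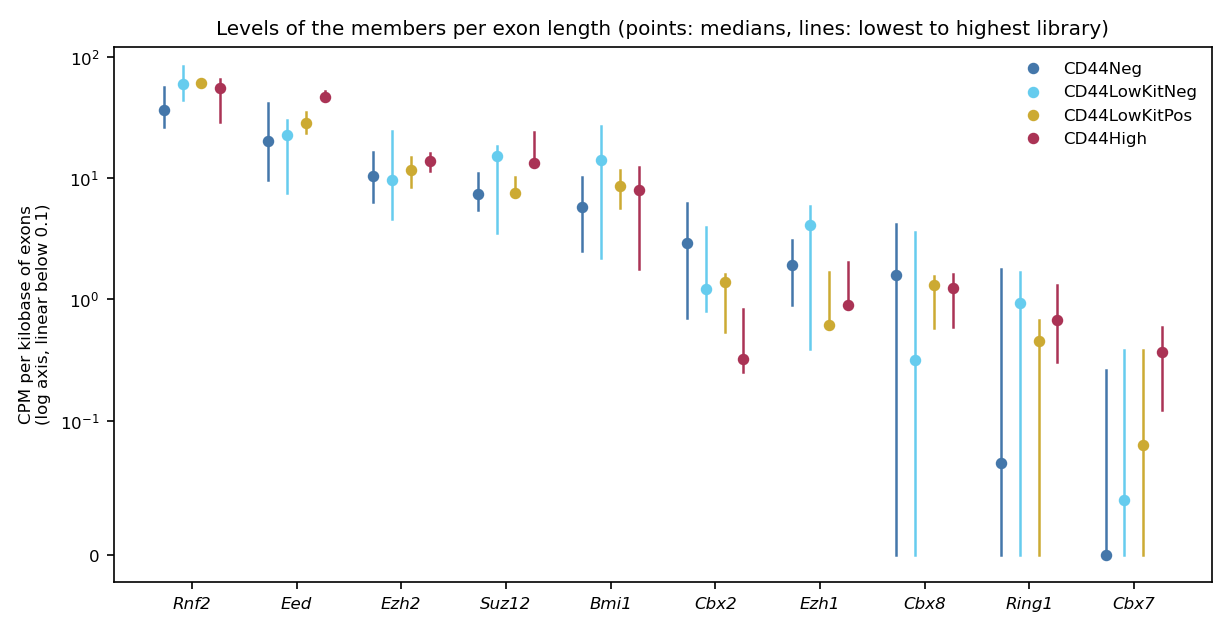
Levels of the 10 members in CPM per kilobase of exons, on an axis that is logarithmic above 0.1. Points are population medians and lines run from the lowest to the highest library (10, 6, 3 and 3 libraries). *Rnf2* and *Eed* have the highest medians in all 4 populations, and *Ring1* and *Cbx7* the lowest in CD44Neg. *Cbx2* has a median of 2.89 in CD44Neg and of 0.320 in CD44High.

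The PRC2 genes were first compared between stages within CD44Neg, the population with most libraries. *Ezh2*, the main methyltransferase, was at 77.1, 95.4, 100.7 and 109 CPM in the 4 libraries of E9.5. The E10 libraries had 53.7, 62.4 and 85.0 CPM, and those of E11 had 42.3, 46.9 and 52.3 CPM. Every E11 library thus lay below every E9.5 library, and only 1 E10 library reached the E9.5 range. *Eed* was at 79.1, 108, 121 and 159 CPM in the E9.5 libraries, with 37.1, 74.1 and 93.3 CPM in those of E10 and 40.3, 51.0 and 54.0 CPM in those of E11. *Suz12* was at 37.7, 43.9, 54.0 and 54.7 CPM in the first, 31.5, 34.6 and 49.2 CPM in the second and 26.8, 29.6 and 29.7 CPM in the last. Neither gene's E11 libraries overlapped those of E9.5. The log2 fold change from E9.5 to E11 was −1.01 for *Ezh2* (SE 0.22, adjusted p = 0.0277), −1.26 for *Eed* (SE 0.26, adjusted p = 0.0231) and −0.72 for *Suz12* (SE 0.28, adjusted p = 0.179).

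None of these passed the threshold, and 0 of the 8 members tested was called, where 0.731% of all 10813 genes were. At an unadjusted p under 0.05 there were 3 members, these same PRC2 genes, against 19.6% of all genes. Libraries that did not overlap, in the same direction, were found for 11% of all genes. With DESeq2's Wald test, *Ezh2* (adjusted p = 0.00138) and *Eed* (adjusted p = 5.68e-04) passed. *Ezh1* overlapped between the stages, at 12.1 to 17.7 CPM at E9.5 and 6.62 to 15.2 CPM at E11. The ligase *Rnf2* did too, at 123 to 231 CPM and 148 to 192 CPM. The median log2 fold change was −0.55 over the 8 members and 0.02 over all genes. Of 8 accessory PRC2 genes tested, 0 were called and 3 had an unadjusted p under 0.05, and the histone-binding *Rbbp7* had E11 libraries below all of E9.5. Summed DNA replication genes were at 3609 to 4428 CPM in these libraries at E9.5 and at 2818 to 3489 CPM at E11, with 0 of 18 genes called and 6 at an unadjusted p under 0.05. Summed mitosis genes overlapped, at 3275 to 4953 CPM and 2100 to 4728 CPM, with 0 of 16 called and 2 at an unadjusted p under 0.05. Endothelial markers summed to 2217 to 2775 CPM at E9.5 and to 3501 to 4121 CPM at E11, with 1 of 6 called higher and 4 at an unadjusted p under 0.05. The ribosomal precursor *Rn45s* took 1.92% to 13.8% of counts in the E9.5 libraries and 15.2% to 17.9% in those of E11. The part of cycle genes, markers and *Rn45s* in the PRC2 values was not tested.

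CD44LowKitNeg cells, with 1 library at E9.5, had *Ezh2* at 163 CPM at E9.5, 64.4 and 76.2 CPM at E10, and 30.5, 58.3 and 64.4 CPM at E11. *Eed* had 104 CPM in the E9.5 library, 108 and 115 CPM in the E10 libraries and 28.7, 34.1 and 67.3 CPM in those of E11. *Suz12* showed no order by stage, at 91.5 CPM at E9.5, 17.3 and 78.2 CPM at E10, and 29.0, 71.3 and 78.3 CPM at E11. The population difference was also tested for a dependence on stage, between E10 and E11. Of 9 members tested, 0 were called, with 0 at an unadjusted p under 0.05 and 0 by DESeq2's Wald test. Of all genes, 0.00806% were called and 10.7% had such a p. The smallest adjusted p among the members was 0.561, for *Ezh1*.

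**Figure D2:**
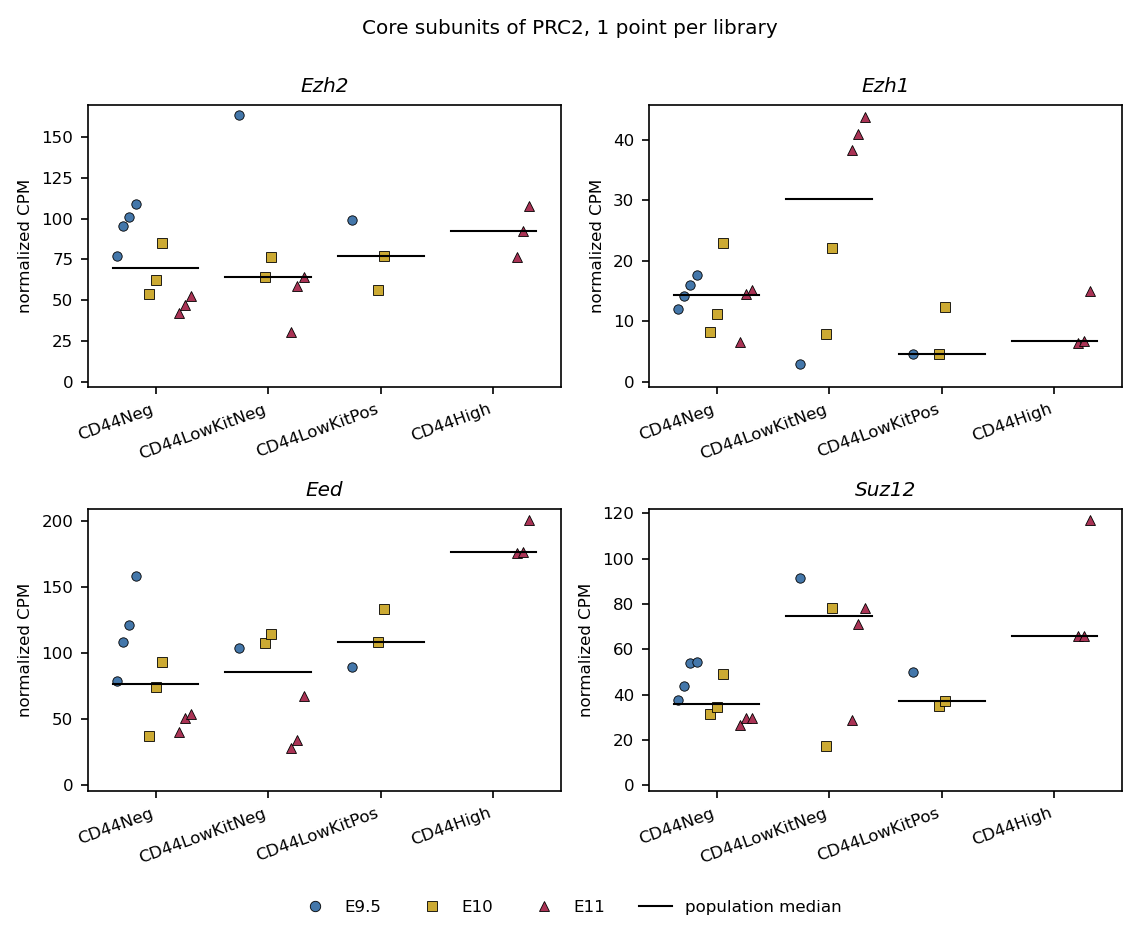
Normalized CPM of the PRC2 core genes in the 22 libraries, by population, with the stage as colour and shape and the population median as a line. *Ezh2*, *Eed* and *Suz12* are lower at E11 than at E9.5 in CD44Neg, *Eed* is at 175 to 201 CPM in CD44High, and *Ezh1* is at 38.4 to 43.8 CPM in the CD44LowKitNeg libraries of E11.

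The promoters of *Ezh2*, *Suz12* and *Eed* are shown because these 3 genes had all E11 libraries of CD44Neg below those of E9.5. They were taken from RefSeq on GRCm38.p6, from 250 bases before to 50 after the start, and 9 of the 10 members had an entry. E2F-type sites (TTTCCCGC or TTTGGCGC) and the cell cycle homology region (TTTGAA or TTCGAA) were searched on both strands, and TTCAAA is the second motif's TTTGAA read on the opposite strand. Both motifs are known from genes that peak in dividing cells. The matched letters are in capitals, 5′ to 3′ on the gene's strand.
*Ezh2*, E2F-type, chr6:47595009-47595038, minus strand: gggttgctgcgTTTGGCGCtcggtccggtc
*Suz12*, E2F-type, chr11:79992876-79992905, plus strand: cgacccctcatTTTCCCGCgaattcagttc
*Suz12*, cell cycle homology region, chr11:79992892-79992919, plus strand: cgcgaattcagTTCAAAgaggcgtccgg
*Eed*, cell cycle homology region, chr7:89981157-89981184, minus strand: agcctatagatTTTGAAtctctcccttc
*Eed*, cell cycle homology region, chr7:89981143-89981170, minus strand: gaatctctcccTTCAAAaaaagaatcta
An E2F-type match was found in 1.63% of 27025 promoters of this length and a cell cycle homology region in 19.4%. The *Ezh2* match lies just past the start, and the 2 *Suz12* windows overlap, as do the 2 *Eed* windows. *Cbx7* also held 1 cell cycle homology region, while *Ezh1*, *Rnf2*, *Ring1*, *Bmi1* and *Cbx8* held neither set of letters in this window. No factor was measured at these sites.

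At E11, where CD44Neg, CD44LowKitNeg and CD44High all have 3 libraries, *Eed* was called higher in CD44High than in both endothelial populations. It was at 175, 177 and 201 CPM in CD44High, against 40.3 to 54.0 CPM in CD44Neg and 28.7 to 67.3 CPM in CD44LowKitNeg. All CD44High libraries lay far above both endothelial populations. The log2 fold change of *Eed* was 1.98 against CD44LowKitNeg (SE 0.35, adjusted p = 0.00209) and 1.87 against CD44Neg (SE 0.35, adjusted p = 0.00415). The 2 comparisons share the CD44High libraries. *Eed* was the only call among the 10 members in each, where 15.5% and 8.47% of 11942 genes were called. The call against CD44LowKitNeg held without each library in turn, while that against CD44Neg was lost without CD44Neg replicate 1, 2 or 3 (adjusted p = 0.0177, 0.0198 and 0.0235) or CD44High replicate 20 (0.0114).

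Over all stages the same differences were smaller and were not called. *Eed* was at 37.1 to 159 CPM with a median of 76.6 in all 10 CD44Neg libraries and at 28.7 to 115 CPM with a median of 85.7 in all 6 CD44LowKitNeg libraries. CD44High lay above all 16. Its difference on the log2 scale was 1.28 against CD44LowKitNeg (SE 0.42, adjusted p = 0.0267) and 1.17 against CD44Neg (SE 0.38, adjusted p = 0.0273). All libraries of CD44High lay above in this way for 13.6% and 9.64% of all genes. With stage as a covariate these were 1.95 (adjusted p = 1.39e-04) and 2.06 (adjusted p = 7.27e-05), and both were called. Over all stages 0 of the 10 members were called in either comparison, where 16% and 14.4% of 12949 genes were, and 3 in each had an unadjusted p under 0.05, against 37.5% and 33.2% of genes. DESeq2's Wald test called 0 against CD44LowKitNeg and 1 against CD44Neg, *Cbx2*.

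At E11 *Suz12* was higher in CD44High than in CD44Neg and *Ezh2* higher than in both endothelial populations, in every library, without passing the threshold. *Suz12* was at 65.9, 66.1 and 117 CPM in CD44High and at 26.8, 29.6 and 29.7 CPM in CD44Neg, with no overlap (log2 fold change 1.48, SE 0.42, adjusted p = 0.0343, and 0.00672 with DESeq2's Wald test). It overlapped the CD44LowKitNeg libraries, which were at 29.0, 71.3 and 78.3 CPM with a median above that of CD44High. *Ezh2* was at 76.2, 92.4 and 108 CPM in CD44High, above all 6 endothelial libraries of E11. Its log2 fold change was 0.91 against CD44Neg (SE 0.34, adjusted p = 0.0956) and 0.74 against CD44LowKitNeg (SE 0.34, adjusted p = 0.131). Over all 22 libraries with stage as a covariate, *Ezh2* was called against CD44Neg (1.04, SE 0.26, adjusted p = 0.00498). Over all stages *Suz12* kept its separation from CD44Neg (1.08, SE 0.35, adjusted p = 0.0266), whereas *Ezh2* overlapped in every population. Non-overlap in 1 direction was common at these sizes. It was found for 19.5% of genes higher and 19.9% lower in CD44High than in CD44Neg at E11, and for 24.4% and 20.8% against CD44LowKitNeg. The macrophage and blood markers given above were higher in the same libraries, and the mesenchyme markers in 2 of the 3. Summed erythroid markers were above all 6 endothelial libraries of E11 in 2 of the 3, and the CD44High library at 48.2 CPM lay within the 28.7 to 54.6 CPM of CD44LowKitNeg. Of the cycle genes, 7 of 18 for DNA replication and 10 of 16 for mitosis were called higher against CD44LowKitNeg at E11 and 0 of either against CD44Neg, where 3 and 0 had an unadjusted p under 0.05. Their sums in CD44High nevertheless lay above every CD44Neg library of E11. Replication genes were at 3720 to 5264 CPM against 2818 to 3489 CPM and mitosis genes at 4747 to 5057 CPM against 2100 to 4728 CPM. The part of these markers and of the cycle genes in the PRC2 values was not tested.

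*Ezh1* was highest in another population at E11. This methyltransferase was at 38.4, 41.0 and 43.8 CPM in CD44LowKitNeg, at 6.62, 14.6 and 15.2 CPM in CD44Neg and at 6.39, 6.73 and 14.96 CPM in CD44High. The CD44LowKitNeg libraries of E11 were the 3 highest of all 22, and no other library exceeded 22.9 CPM. The log2 fold change was 1.81 against CD44Neg (SE 0.55, adjusted p = 0.0883), and CD44High lay below CD44LowKitNeg (−2.25, SE 0.56, adjusted p = 0.0127). Neither passed the threshold with edgeR, and the second passed with DESeq2's Wald test (adjusted p = 4.45e-04). *Ezh1* was the only member of 10 whose CD44LowKitNeg and CD44Neg libraries did not overlap at E11, where 32.1% of all genes did not. Of the 10 members, 0 were called in that comparison and 2 had an unadjusted p under 0.05 (*Ezh1* and *Suz12*), where 1.06% and 21.4% of all genes did. DESeq2's Wald test called 0. At the earlier stages CD44LowKitNeg had 2.90, 7.89 and 22.2 CPM of *Ezh1*, inside or below the CD44Neg range of 8.28 to 22.9 CPM. The higher level was thus measured at E11 alone, although the dependence on stage was not called (1.66, SE 0.92, adjusted p = 0.561).

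The same libraries had the lowest levels of cycle genes. Summed DNA replication genes were at 703, 1574 and 1644 CPM in CD44LowKitNeg at E11 against 2818 to 3489 CPM in CD44Neg, and summed mitosis genes were at 477, 881 and 1045 CPM against 2100 to 4728 CPM. Of 18 replication genes 1 was called lower (*Rrm2*) and of 16 mitosis genes 3 were (*Birc5*, *Ccna2* and *Tpx2*). Leaving out each of the 6 libraries in turn, *Tpx2* kept its call in 6 fits, *Birc5* in 1 and *Rrm2* and *Ccna2* in 0. Markers of other cells also stood apart in these libraries. Summed mesenchyme markers were at 115 to 157 CPM against 0.465 to 13.2 CPM in CD44Neg at E11, most of it from *Acta2*, a smooth muscle actin, with *Col1a1* at 0 in all 6 libraries. Neural markers were at 244 to 703 CPM against 99.6 to 150.2 CPM, nearly all from *Stmn2*, while *Nes* was at 6.86 to 21.2 CPM against 29.9 to 43.4 CPM and *Elavl3* was at 0. Of these markers, 0 of 4 and 0 of 2 tested were called, with 2 and 1 at an unadjusted p under 0.05. Summed blood markers were at 104 to 154 CPM against 19.6 to 38.9 CPM, with 1 of 6 called higher and 3 at an unadjusted p under 0.05. Erythroid markers were at 28.7 to 54.6 CPM against 3.97 to 23.7 CPM, with 0 of 4 tested called and 0 at an unadjusted p under 0.05. Summed endothelial markers did not overlap either, at 5620 to 6348 CPM in CD44LowKitNeg at E11 against 3501 to 4121 CPM in CD44Neg. The part of cycle genes and markers in the *Ezh1* level was not tested.

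**Figure D3:**
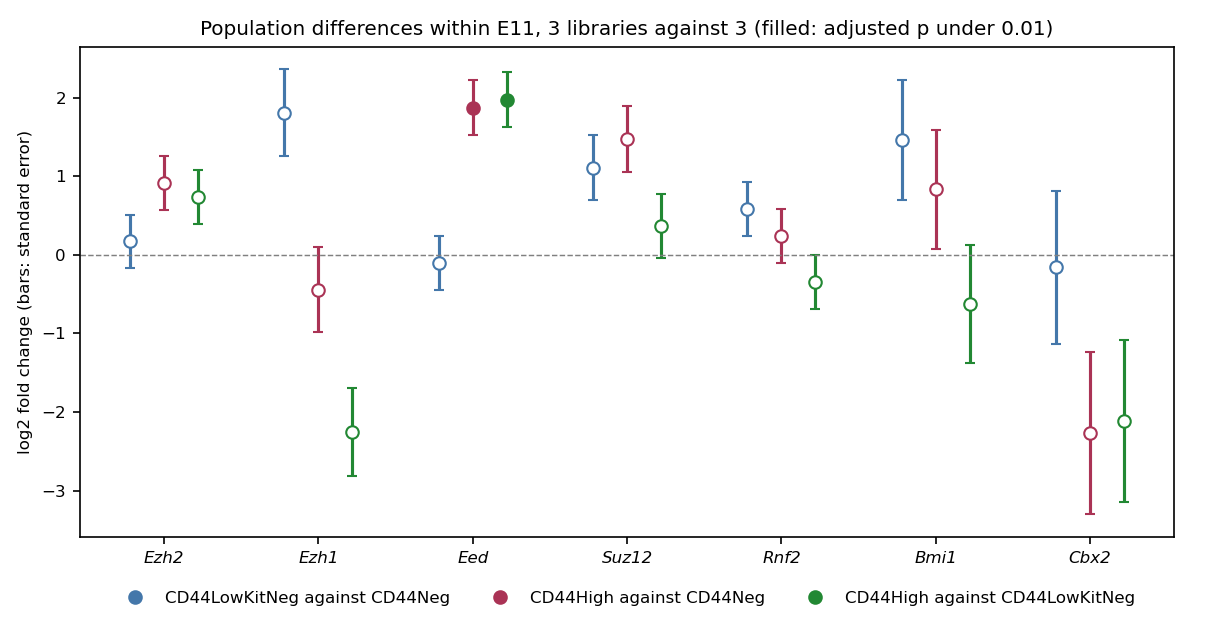
Log2 fold changes (y axis) with standard errors for 7 members between the 3 populations of E11, 3 libraries against 3, with filled points for an adjusted p under 0.01. *Eed* is filled in both comparisons of CD44High, at 1.98 and 1.87, and *Ezh1* is at 1.81 in CD44LowKitNeg against CD44Neg and at −2.25 in CD44High against CD44LowKitNeg. *Ring1*, *Cbx7* and *Cbx8* are left out because of libraries with 0 counts.

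The balance of paralogues within a library follows from these levels and was described without a test. The ratios are not divided by gene length, so they are compared between libraries and do not say which paralogue is the more abundant. The log2 ratio of *Ezh2* to *Ezh1* (CPM + 0.5) was −0.42, 0.55 and 0.60 in the CD44LowKitNeg libraries of E11. It was 1.52 and 3.19 at E10 and 5.59 at E9.5 in the same population. All other 16 libraries were between 1.21 and 4.31. In CD44Neg the median of this ratio was 2.67, 2.84 and 1.75 in the order of the stages, with overlapping libraries. It was at 2.59 to 4.31 in CD44LowKitPos and 2.31 to 3.97 in CD44High. The ratio of *Bmi1* to its paralogue *Pcgf2* had medians of 0.19 in CD44Neg, 0.98 in CD44LowKitNeg, 1.23 in CD44LowKitPos and 3.34 in CD44High. The CD44High libraries, at 2.03, 3.34 and 4.09, overlapped CD44LowKitNeg (up to 4.07) and CD44Neg (up to 2.54). *Bmi1* itself overlapped in all populations, and *Pcgf2* was at 1.36, 2.38 and 2.66 CPM in CD44High against 6.47 to 26.0 CPM in CD44Neg, so the wide ratio in CD44High came with little *Pcgf2*.

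**Figure D4:**
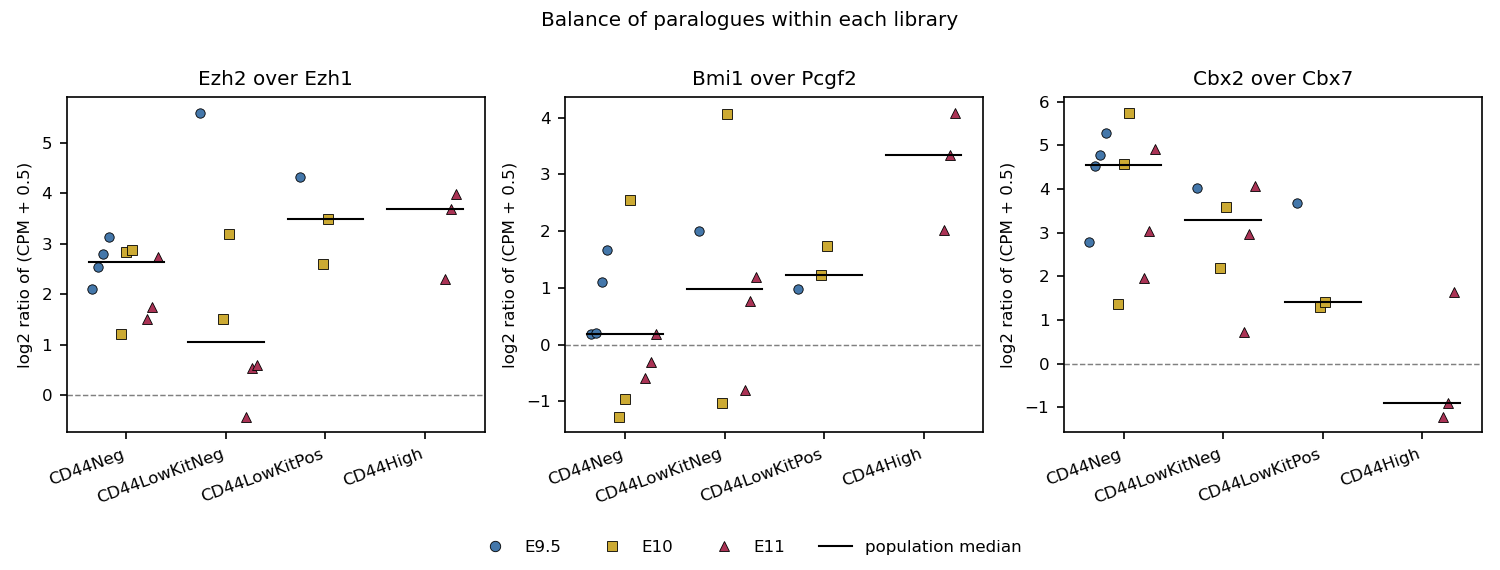
Log2 ratios of paralogues within each of the 22 libraries, by population and stage, with population medians as lines, not divided by gene length, and a dashed line at 0. The *Ezh2* to *Ezh1* ratio of the CD44LowKitNeg libraries of E11 lies between −0.42 and 0.60. The *Bmi1* to *Pcgf2* ratio has its highest median in CD44High, with overlapping libraries, and *Cbx2* over *Cbx7* is below 0 in 2 CD44High libraries.

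In PRC1, the ligase *Rnf2* was the only member called between CD44LowKitNeg and CD44Neg over all stages. It ranged from 109 to 231 CPM with a median of 149 in the 10 CD44Neg libraries and from 183 to 344 CPM with a median of 245 in the 6 CD44LowKitNeg libraries. All 6 lay above the CD44Neg median, but the populations overlapped. The difference was 0.72 on the log2 scale (SE 0.18, adjusted p = 0.00920), from a mean of 157 ± 37.9 CPM (SD, n = 10) to 257 ± 69.0 CPM (n = 6). This was 1 of 9 members tested, where 10.2% of 11022 genes were called and 4.94% were called higher, and 0 of the 9 had populations that did not overlap, against 5.58% of genes. The call stood close to the threshold. It was lost in 11 of the 16 fits that left out 1 library, with adjusted p-values up to 0.0292 without CD44LowKitNeg replicate 11, and it was kept only without CD44Neg replicate 2, 6 or 10 or CD44LowKitNeg replicate 12 or 13. Within E11 the difference was 0.58 (SE 0.35, adjusted p = 0.369) and within E9.5 and E10, with stage as a covariate, it was 0.91 (SE 0.22, adjusted p = 0.0191). Summed blood markers were at 101 to 337 CPM in the 6 CD44LowKitNeg libraries and at 19.6 to 49.7 CPM in the 10 CD44Neg libraries, with 2 of 5 tested called higher. Summed mesenchyme markers were at 115 to 291 CPM against 0.465 to 105 CPM, with 0 of 3 tested called and 1 at an unadjusted p under 0.05. Neural markers summed to 121 to 703 CPM against 77.3 to 150 CPM and erythroid markers to 12.8 to 54.6 CPM against 2.61 to 23.7 CPM. DNA replication genes summed to 703 to 2820 CPM against 2818 to 4428 CPM. In each of these last pairs the libraries overlapped. The part of these markers and genes in the *Rnf2* level was not tested.

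The CD44LowKitPos libraries had *Rnf2* at 244, 250.1 and 256 CPM, above all 10 CD44Neg libraries, and the log2 difference was 0.67 (SE 0.24, adjusted p = 0.0926). Within E9.5 and E10 it was 0.78 (SE 0.23, adjusted p = 0.0507). Over all stages this was 1 of 10 members without overlap, where 5.29% of all genes were higher in this way. Within E9.5 and E10, 0 members were called in either comparison with CD44Neg, where 3.16% of genes were in CD44LowKitNeg and 2.78% in CD44LowKitPos. *Rnf2* had an unadjusted p under 0.05 in both, where 27% and 22% of all genes did. CD44High spread from 119 to 226 and 271 CPM and overlapped every population. The *Rnf2* exons at chr1:151458004-151500955 (mm10, minus strand) overlap exons of *Trmt1l* in GENCODE, and *Ezh2*, *Eed*, *Suz12* and *Cbx7* also share exonic bases with a neighbour. The strand setting of the counting is not given in the sources used here, so how such reads were counted is not known.

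*Ring1*, the second ligase, was near the limit of detection. It had 0 counts in 5 of 10 CD44Neg, 1 of 6 CD44LowKitNeg and 1 of 3 CD44LowKitPos libraries, and its highest levels were 5.82 CPM in CD44Neg replicate 9 (26 counts) and 5.43 CPM in CD44LowKitNeg replicate 12 (42 counts). For a library at 0, as many as 3 counts remain possible from counting error alone. *Bmi1* was at 9.92 to 40.2 CPM with a median of 22.8 in CD44Neg and at 8.66 to 106 CPM with a median of 56.2 in CD44LowKitNeg (adjusted p = 0.0570). The spread within CD44LowKitNeg was wide, with 8.66 and 106 CPM in the 2 libraries of E10. It was at 22.5, 34.2 and 46.1 CPM in CD44LowKitPos and at 7.07, 31.4 and 48.5 CPM in CD44High, so no population stood outside another.

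**Figure D5:**
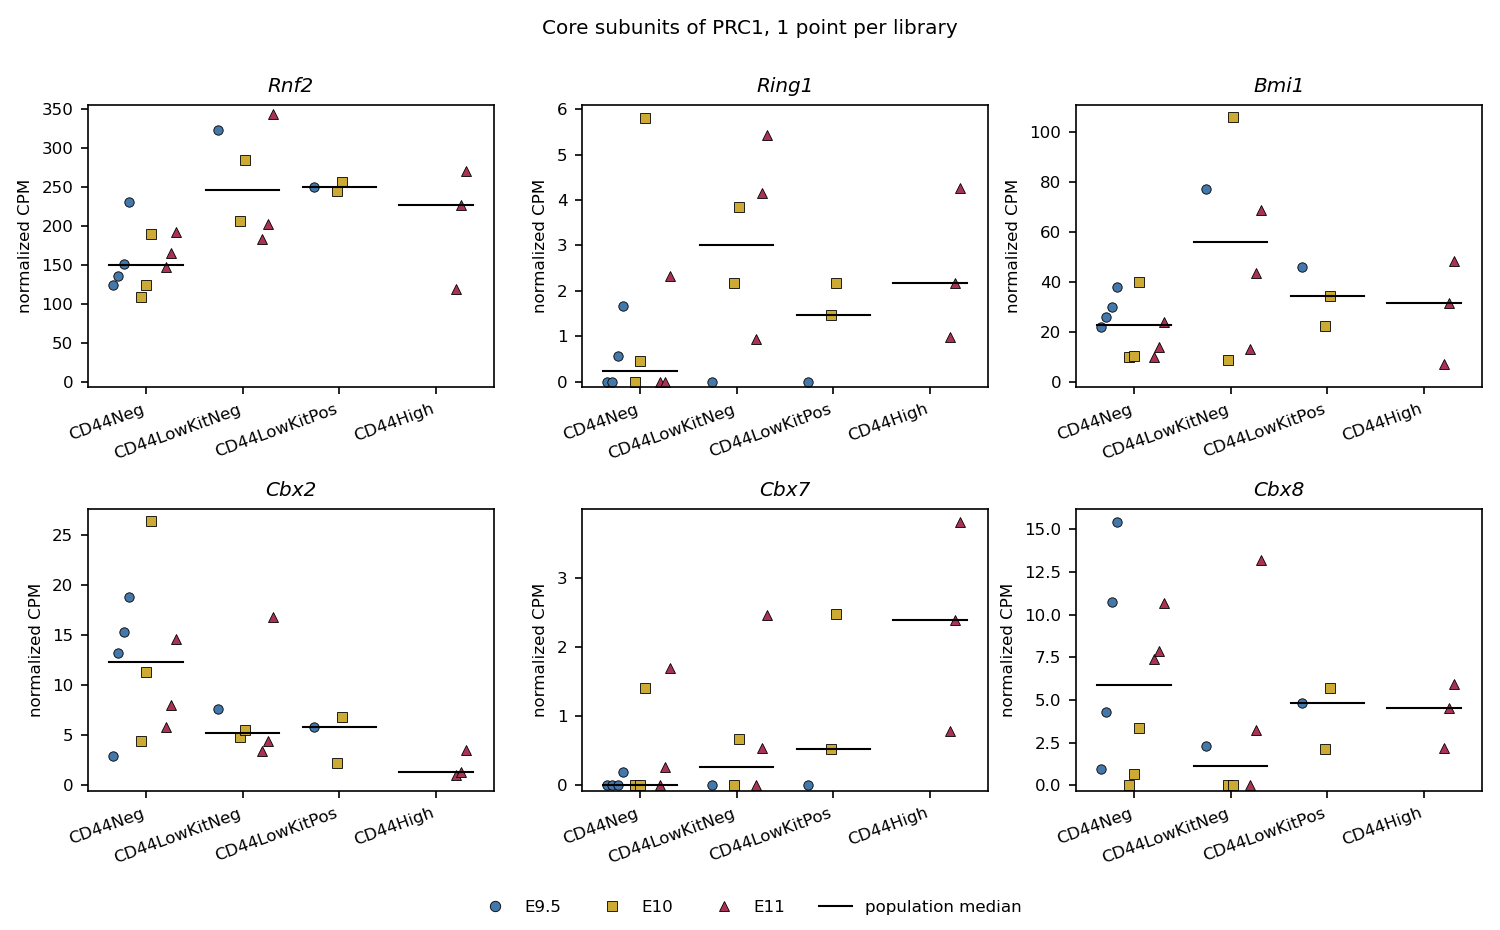
Normalized CPM of the PRC1 core genes in the 22 libraries, by population, with the stage as colour and shape and the population median as a line. *Rnf2* has medians of 149 CPM in CD44Neg and 245 CPM in CD44LowKitNeg, *Cbx2* is at 1.07 to 3.56 CPM in CD44High, and *Ring1*, *Cbx7* and *Cbx8* have libraries at 0.

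Among the CBX readers, *Cbx2* had its highest median in CD44Neg and its lowest in CD44High, without a call by edgeR. It was at 2.98 to 26.4 CPM with a median of 12.3 in CD44Neg and at 3.41 to 16.8 CPM with a median of 5.21 in CD44LowKitNeg. The 3 CD44LowKitPos libraries were at 2.27, 5.88 and 6.82 CPM and the 3 CD44High libraries at 1.07, 1.36 and 3.56 CPM, which rest on 4, 5 and 18 counts. CD44High overlapped CD44Neg over all stages through 1 library each (adjusted p = 0.0223), and DESeq2's Wald test called the difference (adjusted p = 0.00183). At E11 all CD44High libraries lay below all CD44Neg libraries, which were at 5.83, 8.05 and 14.6 CPM (log2 fold change −2.27, SE 1.03, adjusted p = 0.165).

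*Cbx7*, a reader that is abundant in adult blood stem cells, had 0 counts in 6 of 10 CD44Neg, 3 of 6 CD44LowKitNeg and 1 of 3 CD44LowKitPos libraries. All 3 CD44High libraries had it, at 0.792, 2.40 and 3.81 CPM from 4, 9 and 14 counts, but CD44Neg had 2 libraries in that range and CD44LowKitNeg and CD44LowKitPos had 1 each. *Cbx8* had 0 counts in 4 libraries, 1 of CD44Neg and 3 of CD44LowKitNeg. Its CD44Neg libraries were at 7.42, 7.90 and 10.7 CPM at E11, at 0, 0.669 and 3.36 CPM at E10 and at 0.948 to 15.5 CPM at E9.5. The CD44High libraries, at 2.18, 4.53 and 5.94 CPM, lay below those of CD44Neg at E11 (log2 fold change −1.08, SE 1.39, adjusted p = 0.682). *Cbx2* and *Cbx8* are neighbours on chromosome 11 (mm10, 119022962 to 119031270 on the plus strand and 119036305 to 119040969 on the minus strand), and their exons do not overlap.

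CD44LowKitPos, labelled as precursors of blood progenitors, had no member called against any other. Of 10 members, 0 were called against CD44LowKitNeg, where 4.26% of genes were, 0 against CD44Neg (3.48%) and 0 in CD44High against it (3.01%). At an unadjusted p under 0.05 there was 1 member in each, against 27.2%, 20.3% and 17.8% of all genes. DESeq2's Wald test called 0 members in each as well. *Ezh1* was at 4.52, 4.54 and 12.4 CPM, within the range of the endothelial libraries. *Eed* was at 89.6, 109 and 134 CPM, which overlapped both endothelial populations and stood below CD44High (log2 fold change of CD44High 0.74, SE 0.51, adjusted p = 0.504). *Suz12* was at 35.1, 37.1 and 50.2 CPM, also below CD44High (1.03, SE 0.46, adjusted p = 0.241), and 11.9% of all genes lay above in this way. With stage as a covariate, which CD44Neg and CD44LowKitNeg inform, the *Eed* difference was 1.79 (SE 0.44, adjusted p = 0.0172). CD44LowKitPos has no library at E11 and CD44High none earlier, so population and stage cannot be told apart between them.

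The wider Polycomb machinery was counted in 6 lists, and none of its genes was called between CD44LowKitNeg and CD44Neg. The lists held 9 PRC2 accessory genes, of which 8 were tested, 8 further canonical and 13 variant PRC1 genes, 4 genes of the H2A deubiquitinase, 2 H3K27 demethylases and 9 genes of the opposing MLL and COMPASS complexes. Over all genes 10.2% were called. Between 0 and 3 genes of each list had an unadjusted p under 0.05, which 32.6% of all genes had. Their median log2 fold changes ran from −0.19 for variant PRC1 to 0.65 for canonical PRC1, beside 0.01 over all genes and 0.64 over the core members. Outside these, 7 of 18 DNA replication genes were lower in CD44LowKitNeg, among them the helicase subunits *Mcm3* (−1.08, SE 0.18, adjusted p = 3.47e-04) and *Mcm5* (−1.29, SE 0.28, adjusted p = 0.00295), and 0 of 16 mitosis genes were called, with 7 at an unadjusted p under 0.05.

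In CD44High against CD44LowKitNeg, where 16% of all genes were called, 1 of 9 PRC2 accessory genes was higher and 1 lower, 1 of 8 canonical and 3 of 13 variant PRC1 genes were lower, 1 of 4 deubiquitinase genes and 1 of 2 demethylases were lower, and 1 of 9 MLL and COMPASS genes was higher. *Rbbp7*, a histone chaperone shared by PRC2 and other complexes, was at 783 to 1225 CPM in CD44High and at 255 to 707 CPM in CD44LowKitNeg (1.23, SE 0.26, adjusted p = 0.00117), a call lost without CD44High replicate 20 (adjusted p = 0.0373). *Jarid2*, which helps to recruit PRC2, was at 26.1 to 30.9 CPM against 45.9 to 156 CPM (−1.70, SE 0.47, adjusted p = 0.00900). This call was lost without CD44LowKitNeg replicate 14, 15 or 16 or any 1 CD44High library, and within E11 the difference was −1.08 (adjusted p = 0.0554). *Pcgf2*, the paralogue of *Bmi1*, was lower against CD44LowKitNeg (−3.23, SE 0.63, adjusted p = 4.74e-04) and against CD44Neg (−3.01, SE 0.61, adjusted p = 6.33e-04). *Yaf2*, a subunit of variant PRC1, was at 23.7 to 67.9 CPM against 121 to 260 CPM in CD44LowKitNeg (−1.82, SE 0.37, adjusted p = 6.55e-04).

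*Kdm6b*, which removes the PRC2 mark, was at 15.04, 19.97 and 36.2 CPM in CD44High, below every library of the 3 other populations. Its log2 fold change in CD44High was −2.23 against CD44LowKitNeg (SE 0.35, adjusted p = 4.49e-05), −1.80 against CD44Neg (SE 0.33, adjusted p = 2.45e-04) and −2.15 against CD44LowKitPos (SE 0.38, adjusted p = 5.58e-04). The other demethylase of the list, *Kdm6a*, was not called. *Asxl3*, of the deubiquitinase list, had 0, 0 and 3 counts in CD44High, and *Bcorl1*, of variant PRC1, had 0, 0 and 8, so no fold change is given for them. *Dpy30*, a subunit shared by the MLL and COMPASS complexes, was higher than in CD44LowKitNeg both in CD44LowKitPos (1.23, SE 0.25, adjusted p = 0.00319) and in CD44High (0.97, SE 0.25, adjusted p = 0.00495). The first call was lost without any 1 of the CD44LowKitPos libraries. The second was kept in 2 of 9 fits that left out a library, those without CD44LowKitNeg replicate 14 or 16, with adjusted p-values for *Dpy30* up to 0.0596 without CD44High replicate 20.

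Of 18 textbook Polycomb targets outside the HOX clusters, at most 2 passed the filter on low counts in any comparison. *Gata6*, a transcription factor of endoderm and heart, was the 1 tested between the endothelial populations. It was at 0.265 to 14.8 CPM with a median of 7.55 in CD44Neg and at 33.4 to 61.0 CPM with a median of 49.2 in CD44LowKitNeg, without overlap (2.56, SE 0.44, adjusted p = 4.40e-04). Within E11 alone and within E9.5 and E10 the *Gata6* difference was not called, at 3.43 (adjusted p = 0.0937) and 2.40 (adjusted p = 0.0683). Summed mesenchyme markers were likewise at 115 to 291 CPM in CD44LowKitNeg against 0.465 to 105 CPM in CD44Neg, with 0 of 3 tested called and 1 at an unadjusted p under 0.05, and their part in the *Gata6* level was not tested. In CD44High it had 0, 2 and 11 counts.

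The genes nearest in pattern were found by Pearson's r of log2 CPM over the 22 libraries, among 12949 genes, and are given as a description, since the libraries share population, stage and depth. For *Ezh2* they were *Arf6* (0.83), *Kif20b* (0.82) and *Smc2* (0.80). For *Ezh1* they were *Leng8* (0.78), *Plod1* (0.76) and *Tm9sf1* (0.75). For *Bmi1* they were *Orc4* (0.82), 0610010F05Rik (0.81) and *Zfp367* (0.78), and for *Cbx2* they were *Traf4* (0.83), *Sorcs2* (0.78) and *Fxyd6* (0.78).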

How the data were processed

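Sorted embryonic cells, 25 to a library, were amplified with SMART-Seq2. The authors trimmed reads with the FASTX toolkit, aligned them to mm10 with RNA STAR and deposited raw counts per gene from htseq-count. Tool versions, annotation and strand setting are not given in the sources used here. The deposited counts of 24454 genes were tested with edgeR 4.0.16 (R 4.3.3, quasi-likelihood, TMM scaling, filterByExpr with a count minimum of 10), with Benjamini-Hochberg adjustment over all genes tested and a threshold of 0.01. The SE is the log2 fold change divided by the root of its F. CD44LowKitNeg against CD44Neg used the 16 libraries of both, the other population comparisons all 22, and comparisons at E11 the 9 libraries of that stage. Depth had a median of 5758382.5 counts, and 3 counts correspond to 0.347 to 0.767 CPM, which covers counting error only.

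No 2 libraries of the same population and stage agreed within sampling noise (chi-square per degree of freedom 17.0 to 85.2 over 20 pairs). Log2 fold changes are given for members that were called or whose libraries did not overlap. Members and gene lists were chosen with earlier results of these data known. Alternatives were DESeq2 1.42.0 (size factors, Wald test), the filter, stage as a covariate, single stages and leaving out each library. Scripts were tested on simulated data. In those for CD44LowKitNeg against CD44Neg, DESeq2's Wald test called 11 genes that had not been changed and edgeR called 0. Of genes changed 4-fold they recovered 67 and 47 of 96, and of genes changed 2-fold 20 and 9 of 97. Lengths and loci came from GENCODE vM21.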

Additional observations from a re-analysis of the deposited data

Results flagged for a closer look

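Single libraries that stood apart from the rest of their population were sought with Dixon's test at the 95% level, in the 20 sets formed by the 10 members in CD44Neg and in CD44LowKitNeg, and chance marks about 1 in 20. In 5 sets the highest library stood apart. *Ezh2* was at 163 CPM in CD44LowKitNeg replicate 14, the only E9.5 library of that population, with the next at 76.2 CPM. *Ring1* was at 5.82 CPM in CD44Neg replicate 9, with the next at 2.32 CPM. *Cbx2* was at 16.8 CPM in CD44LowKitNeg replicate 11, with the next at 7.65 CPM. CD44LowKitNeg replicate 12 stood apart for *Cbx7*, at 2.46 CPM with the next at 0.671 CPM, and for *Cbx8*, at 13.2 CPM with the next at 3.25 CPM. Replicate 14 also had the highest summed mitosis genes of its population, at 5982 CPM. What sets these libraries apart was not tested.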

How the results depend on the processing

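No paired analysis was possible because each replicate number belongs to 1 library and is not shared between populations. Of the fold changes, 86 were recomputed (members called or without overlap, and called list genes), and all kept their sign under each alternative run (1099 values). Of 222 alternative values for the members' fold changes, 194 stayed on their side of the threshold, 18 lost it and 10 gained it. Other counts, with their alternatives, were as follows.

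Between CD44LowKitNeg and CD44Neg 1121 genes were called, against 1746 with DESeq2's Wald test, 126 within E11 and 375 within E9.5 and E10 with stage as a covariate (as in all values for E9.5 and E10), and the single member became 0 within E11, within E9.5 and E10 and with no filter. In CD44LowKitPos against CD44LowKitNeg 552 became 1265 with the Wald test, 366 with stage as a covariate and 82 within E9.5 and E10 with that covariate. Against CD44Neg 451 became 829 with the Wald test and 190 when each library had to hold 10 counts of a gene. In CD44High against CD44LowKitPos 390 became 716 and 116 under the same alternatives. In CD44High against CD44LowKitNeg 2067 became 1179 with that filter, and 0 members became 1 with stage as a covariate and within E11. In CD44High against CD44Neg 1864 became 839 with that filter and 1011 within E11, and 0 members became 1 with the Wald test (*Cbx2*), 2 with stage as a covariate (*Eed* and *Ezh2*) and 1 within E11 (*Eed*). Between stages in CD44Neg 79 became 270 with no filter, 209 with that filter and 540 with the Wald test, and 0 members became 1 with no filter and 2 with the Wald test. For the dependence on stage 1 became 190 with no filter, 7 with that filter and 125 with the Wald test. Within E11 the Wald test gave 803 genes for CD44LowKitNeg against CD44Neg (126 by edgeR), 3079 and 2 members for CD44High against CD44LowKitNeg (1847 and 1) and 2040 and 2 members for CD44High against CD44Neg (1011 and 1). The cause was not tested.

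Leaving out 1 library gave 875 to 1222 genes for CD44LowKitNeg against CD44Neg, 65 to 687 and 159 to 630 for CD44LowKitPos against CD44LowKitNeg and CD44Neg, and 251 to 392, 1334 to 2176 and 1340 to 1867 for CD44High against CD44LowKitPos, CD44LowKitNeg and CD44Neg. It gave 4 to 134 between stages in CD44Neg and 0 to 3 for the dependence on stage. Within E11 it gave 7 to 53, 1254 to 1530 and 609 to 947 for CD44LowKitNeg against CD44Neg and CD44High against CD44LowKitNeg and CD44Neg. Members called ranged from 0 to 1 for CD44LowKitNeg against CD44Neg over all stages and for CD44High against CD44Neg both over all stages and within E11. The alternatives within E11 (leaving out each library, DESeq2) were chosen after seeing the data. For the dependence on stage, with 1 gene called, the count was 0 without CD44Neg replicate 1, 3, 8 or 9, 2 without CD44Neg replicate 10 or CD44LowKitNeg replicate 11 or 16, and 3 without CD44LowKitNeg replicate 12 or 15. The libraries that moved another count by over 1.5 times were CD44High replicate 22 (251 against CD44LowKitPos and 1334 against CD44LowKitNeg), CD44LowKitPos replicates 17 and 18 (65 and 160 against CD44LowKitNeg, 182 and 159 against CD44Neg) and CD44LowKitNeg replicates 11, 12 and 13 (342, 312 and 334 in CD44LowKitPos against CD44LowKitNeg). Within E11, CD44Neg replicates 1, 2 and 3 gave 643, 609 and 637 for CD44High and 9, 7 and 32 for CD44LowKitNeg, and CD44LowKitNeg replicates 11, 12 and 13 gave 16, 53 and 11. Between stages, CD44Neg replicates 1, 2, 3, 4 and 7 gave 4, 20, 10, 11 and 14. The highest between stages came without CD44Neg replicate 6 (134), which also brought *Eed* in CD44High against CD44Neg past the threshold (1.33, adjusted p = 0.00928). With 3 libraries in most sets and *Ring1*, *Cbx7* and *Cbx8* at a few counts, a missed threshold does not show that levels were alike.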
